A study of Mus musculus with 11 samples.

Results

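The 10 genes described here make, break down or sense prostaglandins, and they were taken by their symbols from the 21846 genes of the expression table. They are Pla2g4a, Ptgs1, Ptgs2, Ptges, Ptges2, Ptges3, Ptgis, Hpgd, Ptger2 and Ptger4. Their RNA was measured by RNA-sequencing in 11 libraries of 3 mouse mammary carcinoma cell lines, which were set up from tumors of virgin female FVBhuHER2 mice, a strain that carries human HER2 as a transgene. MamBo89HER2stable came from tumor A and kept HER2. MamBo43HER2labile came from tumor B and is HER2-positive when untreated, and MamBo38HER2loss, which is HER2-negative, was set up from a tumor that grew from injected MamBo43 cells. Trastuzumab, an antibody against HER2, was given at 30 µg/ml either for 60 days (continuous) or for 30 days and then left out for 30 days (withdrawn). The HER2-negative group has 6 libraries, namely MamBo38 untreated (n = 2), withdrawn (n = 1) and continuous (n = 1) and MamBo43 withdrawn (n = 1) and continuous (n = 1). The HER2-positive group has 5 libraries, namely MamBo43 untreated (n = 1) and MamBo89 untreated (n = 2), withdrawn (n = 1) and continuous (n = 1). One of the untreated MamBo89 libraries, named MAMBO89AG3 in the labels, was taken as the clone that the study's methods list, and the other as the parental line, by exclusion, since the label does not call it a clone. Trastuzumab-treated MamBo43 cells were seeded at high density, per the study's methods. The HER2 status of trastuzumab-treated MamBo43 is that of the study's methods.

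Prostaglandins are lipid mediators made from arachidonic acid, which phospholipase A2 releases from membranes. The cyclooxygenases Ptgs1 and Ptgs2 turn it into prostaglandin H2, and terminal synthases turn that into prostaglandin E2, prostacyclin and other products. Prostaglandin E2 acts on its receptors on the same or neighbouring cells, is exported and taken up by carriers, and is inactivated inside cells by the dehydrogenase Hpgd. In mammary tumors, Ptgs2 is known as the inducible member of the pair and is often found raised.

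Total counts ranged from 17040454 to 27127662 per library, so that 3 counts, taken as the floor for a single gene, equal 0.113 to 0.179 CPM (counts scaled to library size, with sizes adjusted by the TMM method). Counting error is thus small for the 7 genes above 2 CPM in every library, and the number of libraries sets the precision. Nothing in the labels says that the libraries of a group came from separate cultures, so a p-value measures only the spread between these libraries. Mouse Erbb2, which is not the transgene, averaged 21.8 CPM (SD 5.31, n = 6) without HER2 and 147 CPM (SD 20.8, n = 5) with it. Whether reads of the human transgene were counted under mouse Erbb2 was not tested. All HER2-negative libraries and untreated MamBo43 stem from tumor B, so tumor B has 1 HER2-positive library. A code in the names is found in 3 of the 4 MamBo38 libraries and in no other library. The 16 markers of mammary epithelium summed to between 2.168 and 3.53 CPM in MamBo38, to 2902 and 647 CPM in MamBo43 with trastuzumab and to between 3380 and 4655 CPM in the HER2-positive libraries, so the defining markers of the labelled tissue were close to absent in MamBo38. The 14 mesenchymal markers summed to between 7070 and 10638 CPM in HER2-negative libraries and to between 141 and 3410 CPM in HER2-positive ones. Of the epithelial markers, 6 of 13 tested fell and 0 rose in HER2-negative libraries, and of the mesenchymal ones 9 of 11 rose and 0 fell. The part of these markers in the results was not tested.

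HER2-negative libraries had more RNA of Pla2g4a, Ptgs1, Ptgs2, Ptges and Ptges3, which act on the way to prostaglandin E2, and less of Ptger4, one of its receptors, while the synthase gene Ptges2 was at a log2 fold change of -0.63, under the minimum for a call. The calls of Ptgs1, Ptges3 and Ptger4 were lost with tumor of origin as a covariate, as given for each of them. Of the 10 genes, 7 had enough counts to be tested for HER2 status (6 negative and 5 positive libraries). edgeR's quasi-likelihood test called 6 of these 7, where a call needs a p under 0.1 after Benjamini-Hochberg adjustment and a change of at least 1 on the log2 scale, against 32.8% of the 12364 genes tested. Pla2g4a, Ptgs2, Ptges, Ptgs1 and Ptges3 were higher in HER2-negative libraries, as were 15.8% of all tested genes, and Ptger4 was lower, as were 17.0%. In Pla2g4a, Ptgs2, Ptges and Ptges3 every HER2-negative library lay above every HER2-positive one, which held for 17.5% of all tested genes, while 17.4% lay wholly below and none of the 7 did. The median log2 fold change of the 7 genes was 2.51, beside -0.04 over all genes tested. In such bulk libraries, fewer cells of a type and less RNA per cell cannot be told apart. The plot of the 10 genes by library shows both groups.

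**Figure D1:**
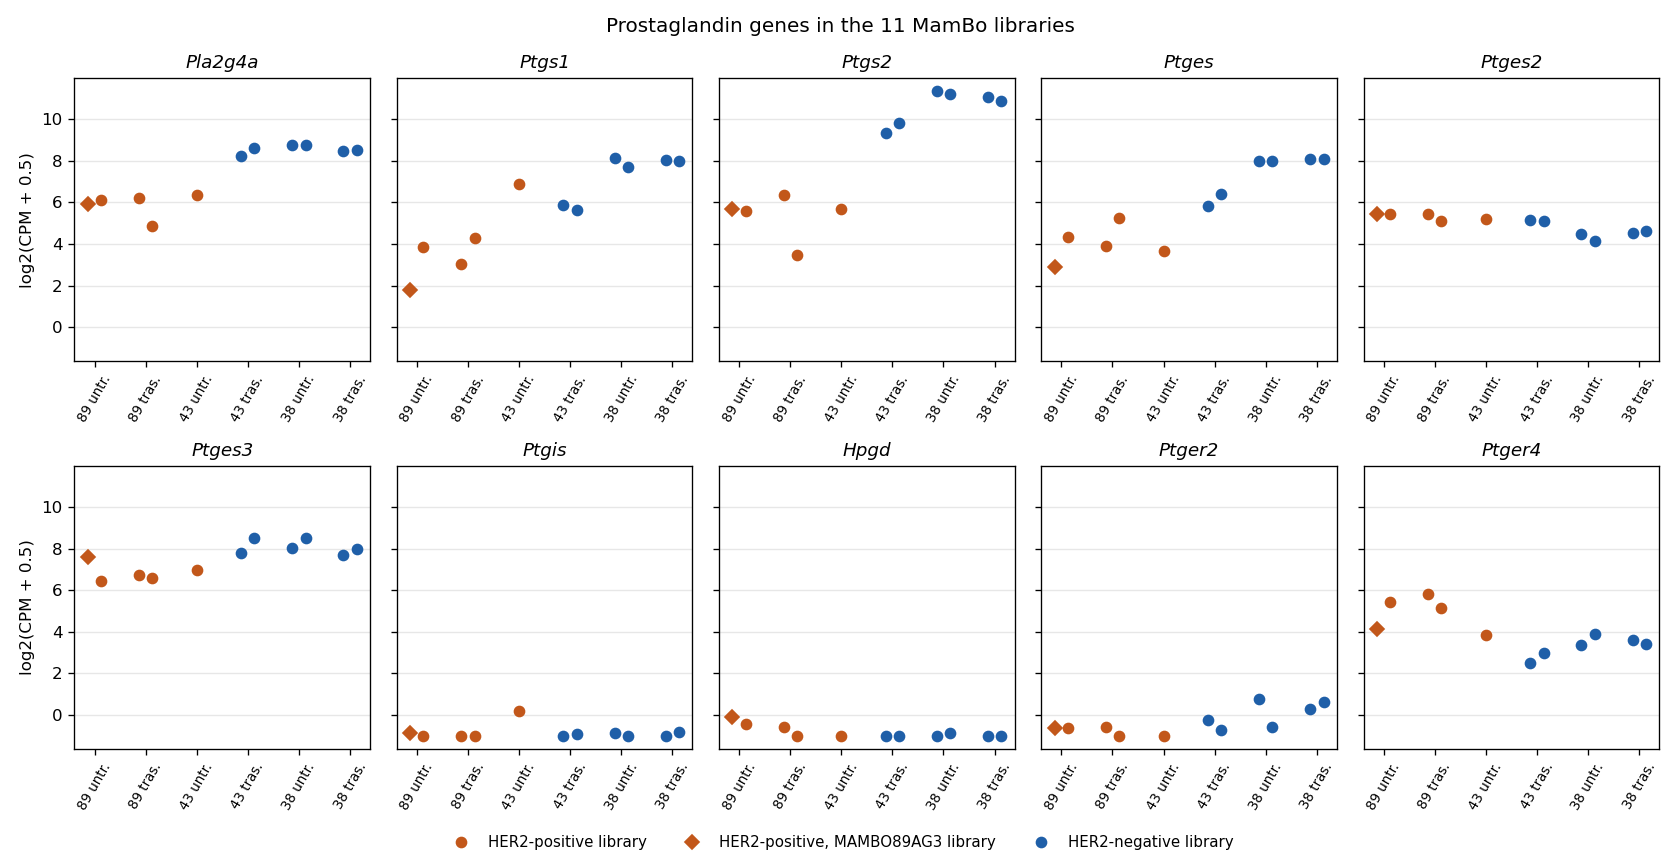
Levels of the 10 prostaglandin genes in the 11 libraries, one panel per gene. The x axis gives the line (MamBo89, MamBo43, MamBo38) and whether it was untreated (untr.) or had trastuzumab (tras.), the y axis is log2(CPM + 0.5), and each point is 1 library (left point of a trastuzumab pair withdrawn, right point continuous; the diamond is the MAMBO89AG3 library). Pla2g4a, Ptgs2, Ptges and Ptges3 are separated by HER2 status, Ptgs1, Ptges2 and Ptger4 overlap, and Ptgis, Hpgd and Ptger2 lie near the bottom of the scale.

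In GENCODE M21 on GRCm38, Ptgs1 lies at chr2:36230426-36252272 and Ptges2 at chr2:32395896-32405772 (plus strands), and Ptges at chr2:30889471-30929863 and Ptgis at chr2:167191805-167240604 (minus strands). Ptges3 lies at chr10:128058954-128077272, Hpgd at chr8:56294585-56321043 and Ptger2 at chr14:44988195-45003820 (plus strands), and Ptger4 at chr15:5206661-5244187 (minus strand). Pla2g4a and Ptgs2 lie near each other on chromosome 1, as described further on.

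Because 4 of the genes moved together, the 250 bases before the RefSeq start were read for the members, 9 of which have an entry on GRCm38.p6. The sequences of Pla2g4a, both cyclooxygenase genes, Ptges and Ptger4, the called members of largest change, are printed 5′ to 3′ on the strand of the gene, with matches to the searched motifs in capitals except E-boxes. They lie at chr1:149961291-149961540 (minus strand), chr2:36230176-36230425 (plus), chr1:150099781-150100030 (plus), chr2:30903298-30903547 (minus) and chr15:5244188-5244437 (minus). The RefSeq start of Ptges lies 26566 bases inside the GENCODE gene.
Pla2g4a: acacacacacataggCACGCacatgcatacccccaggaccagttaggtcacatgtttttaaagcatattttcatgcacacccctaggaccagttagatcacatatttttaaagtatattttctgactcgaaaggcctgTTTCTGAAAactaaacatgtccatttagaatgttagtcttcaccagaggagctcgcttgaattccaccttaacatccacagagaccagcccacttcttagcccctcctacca
Ptgs1: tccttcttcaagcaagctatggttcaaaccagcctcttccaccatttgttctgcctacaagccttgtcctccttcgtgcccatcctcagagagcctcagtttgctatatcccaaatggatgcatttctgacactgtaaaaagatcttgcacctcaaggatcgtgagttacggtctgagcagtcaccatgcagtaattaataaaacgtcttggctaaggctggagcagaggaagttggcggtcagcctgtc
Ptgs2: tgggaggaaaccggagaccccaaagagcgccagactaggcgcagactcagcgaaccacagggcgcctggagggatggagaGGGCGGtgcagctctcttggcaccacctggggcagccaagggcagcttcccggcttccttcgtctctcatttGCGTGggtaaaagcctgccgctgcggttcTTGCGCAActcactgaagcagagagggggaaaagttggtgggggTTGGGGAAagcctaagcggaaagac
Ptges: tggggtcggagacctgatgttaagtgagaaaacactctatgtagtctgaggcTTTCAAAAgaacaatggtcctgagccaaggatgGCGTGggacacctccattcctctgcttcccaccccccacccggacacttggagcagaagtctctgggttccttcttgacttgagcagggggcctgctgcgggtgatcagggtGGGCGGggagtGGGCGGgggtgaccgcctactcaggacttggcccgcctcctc
Ptger4: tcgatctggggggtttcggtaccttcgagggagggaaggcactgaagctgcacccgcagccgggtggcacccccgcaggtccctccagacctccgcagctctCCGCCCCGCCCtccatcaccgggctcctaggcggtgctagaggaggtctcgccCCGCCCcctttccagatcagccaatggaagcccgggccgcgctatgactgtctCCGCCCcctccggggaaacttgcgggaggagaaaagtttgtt

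Motifs were searched on both strands. The C/EBP form TTNNGNAA was found in 6 of the 9 promoters, with 2 matches each in Ptgs2 and in Pla2g4a, where they overlap, and in 36.8% of all 32851 promoters listed. The GC box GGGCGG was found in 5 of 9, among them Ptgs2, Ptges and Ptger4, and in 32.7% of all promoters. The core of the hypoxia response element, ACGTG or GCGTG, was found in 6 of 9 and in 38.6% of all, and the E-box CANNTG, which can overlap it, in 7 of 9 and 66.2%. The TATA box (TATAAA or TATATAA, 13.8% of all), the core of the cyclic AMP response element (TGACG, 17.8%), the AP-1 site TGANTCA (6.75%) and a form of the NF-kB site (1.41%), were found in 0 of the 9. In the 50 bases after the start, a window added later, TGACG was found in 2 of the 9, Ptgs2 and Ptges3, and in 3.49% of all promoters. A TATA box (1.46% of all), the C/EBP form (6.27%), the GC box (8.21%) and the hypoxia core (10.3%) were each found there in 1 of 9. The E-box was found there in 2 of 9 (18.5%), and the AP-1 and NF-kB forms in 0. The bases before the start were 61.6% G or C in Ptgs2, 59.6% in Ptges, 43.2% in Pla2g4a and 48.0% in Ptgs1, beside a median of 52.4%. A C/EBP match and a hypoxia core stood together in Pla2g4a, Ptgs2 and Ptges, and also in Ptges2 and Hpgd, which were not called higher, and these are matches of letters only.

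Pla2g4a encodes cytosolic phospholipase A2 alpha, the enzyme that frees arachidonic acid for the cyclooxygenases. Among the HER2-negative libraries its lowest level was 304 CPM, the median 379 CPM and the highest 428 CPM. The HER2-positive libraries had 61.0 CPM in the MAMBO89AG3 library, 69.9 CPM in parental MamBo89, 73.6 CPM in withdrawn MamBo89, 28.6 CPM in continuous MamBo89 and 80.6 CPM in untreated MamBo43. The groups did not overlap, and the lowest HER2-positive level was that of MamBo89 under continuous trastuzumab. The log2 fold change was 2.60 ± 0.24 (SE), with an adjusted p of 1.42e-05 from edgeR.

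Ptgs2, the inducible cyclooxygenase, differed most among the 10 genes. Its HER2-negative levels ran from 641 CPM in withdrawn MamBo43 over a median of 2019.7 CPM to 2613 CPM in an untreated MamBo38 library. In HER2-positive libraries it had 51.8 CPM in the MAMBO89AG3 library, 47.6 CPM in parental MamBo89, 80.3 CPM in withdrawn MamBo89, 10.6 CPM in continuous MamBo89 and 51.0 CPM in untreated MamBo43. No HER2-positive library came near the HER2-negative ones, and within the HER2-negative group MamBo38 lay above MamBo43. The log2 fold change was 5.19 ± 0.58 (SE), with an adjusted p of 3.95e-05 from edgeR.

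Ptgs1, the cyclooxygenase that many tissues make at rest, differed between the lines within both HER2 groups. Its levels were 279 and 206 CPM in untreated MamBo38, 263 CPM in withdrawn and 258 CPM in continuous MamBo38. Untreated MamBo43, a HER2-positive library, had 119 CPM, above the 58.0 CPM of withdrawn and the 49.4 CPM of continuous MamBo43. MamBo89 had 2.91 CPM in the MAMBO89AG3 library, 14.3 CPM in the parental line, 7.82 CPM when withdrawn and 19.3 CPM when continuous. The groups thus overlapped through untreated MamBo43, and MamBo89 lay below both other lines in every library. The log2 fold change of HER2-negative over HER2-positive libraries was 2.51 ± 0.90 (SE), with an adjusted p of 0.0362 from edgeR. With tumor of origin as a covariate, log2 was 0.65 with an adjusted p of 0.682 from edgeR. The call was also lost with the library code as a covariate, at 1.68 with an adjusted p of 0.182. Over 21 alternatives log2 ranged from 0.61 to 4.07 and the adjusted p from 7.98e-04 to 0.682.

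Of the 3 genes named prostaglandin E synthases, Ptges and Ptges3 rose and Ptges2 did not reach the fold change minimum. Ptges, the inducible microsomal synthase that works together with Ptgs2, had between 251 and 269 CPM in MamBo38, 56.1 CPM in withdrawn and 84.1 CPM in continuous MamBo43. Its HER2-positive levels were 6.99 CPM in the MAMBO89AG3 library, 19.9 CPM in parental, 14.7 CPM in withdrawn and 38.04 CPM in continuous MamBo89, and 12.03 CPM in untreated MamBo43. The groups did not overlap, and the smallest gap lay between withdrawn MamBo43 and continuous MamBo89. The log2 fold change was 3.43 ± 0.56 (SE), with an adjusted p of 4.42e-04 from edgeR. Ptges3 encodes the cytosolic synthase, which is also known as the Hsp90 cochaperone p23. It ranged from 204 CPM over a median of 254 CPM to 369.7 CPM in HER2-negative libraries, and had 194 CPM in the MAMBO89AG3 library, between 86.7 and 107 CPM in the other MamBo89 libraries and 127 CPM in untreated MamBo43. The MAMBO89AG3 library came close to the HER2-negative range, and the log2 fold change was 1.19 ± 0.24 (SE), with an adjusted p of 0.00191 from edgeR. With tumor of origin as a covariate, log2 was 1.13 and Ptges3 lost its call, with an adjusted p of 0.106 (6.96e-06 to 0.106 over 21 alternatives). In Ptges3, 18.5% of 75-base windows also occur in the pseudogenes Ptges3-ps and Gm11893, so part of its counts could have been split with them. Ptges2, a membrane-associated synthase, averaged 25.9 CPM (SD 7.21, n = 6) without HER2 and 40.1 CPM (SD 4.27, n = 5) with it. The groups overlapped, since both MamBo43 libraries with trastuzumab, at 35.6 and 33.6 CPM, lay at the level of continuous MamBo89, at 34.5 CPM. Its log2 fold change of -0.63 ± 0.19 (SE) had an adjusted p of 0.0158 from edgeR and did not reach the fold change minimum. Ptges2 was called lower in the untreated libraries alone, at -1.05 with an adjusted p of 0.0420 (0.00501 to 0.349 over 21 alternatives).

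Levels per kb of merged exon give a rough scale between genes. The exons of all annotated isoforms were merged, and which isoforms these cells express was not tested. On this scale Ptgs2 was the highest of the 10 genes in HER2-negative libraries, with a mean of 384 CPM per kb. Ptges3 followed with 126, Pla2g4a with 59.4, Ptges with 50.2 and Ptgs1 with 47.8 CPM per kb. In MamBo38 the last 3 lay together, with Pla2g4a at 56.1 to 67.0, Ptges at 63.8 to 68.5 and Ptgs1 at 53.1 to 71.8 CPM per kb. In withdrawn and continuous MamBo43 Pla2g4a lay above both, at 47.5 and 60.5 CPM per kb. Ptges had 14.3 and 21.4 and Ptgs1 14.9 and 12.7 CPM per kb there. In HER2-positive libraries Ptges3 led with 55.1 CPM per kb, and Ptgs2, Pla2g4a and Ptges2 lay together at 10.5, 9.82 and 7.94 CPM per kb. The Ptgs1 mean of 8.39 CPM per kb there was carried by untreated MamBo43, at 30.5 CPM per kb, and the 4 MamBo89 libraries ranged from 0.749 to 4.97 CPM per kb. Ptges2 (5.12 CPM per kb) and Ptger4 (1.47 CPM per kb) were low in HER2-negative libraries.

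The balance of both cyclooxygenases was read as the share of Ptgs2 in the sum of Ptgs1 and Ptgs2 per kb. In MamBo38 it lay between 86.3% and 90.6%, and in MamBo43 it was 26.7% when untreated, 90.4% when withdrawn and 93.9% when continuous. MamBo89 had 93.8% in the MAMBO89AG3 library, 73.9% in the parental line, 89.7% when withdrawn and 31.9% when continuous. The share therefore overlapped between HER2-positive and HER2-negative libraries, although the level of Ptgs2 did not, as the bars of both cyclooxygenases show. These shares rest on 1 library each, and their spread between cultures is not known.

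**Figure D2:**
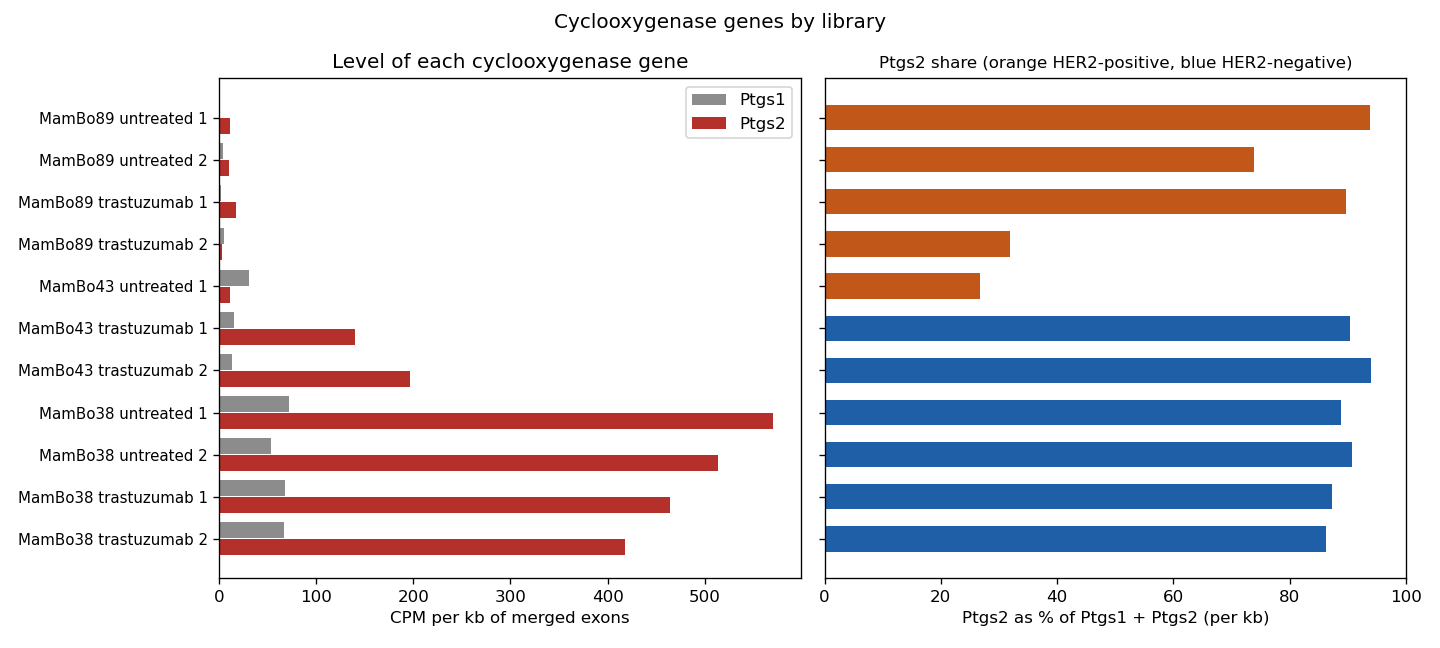
Level of Ptgs1 and Ptgs2 in CPM per kb of merged exon (left, bars from 0) and share of Ptgs2 in their sum in percent (right) for each of the 11 libraries, 1 bar per library, with trastuzumab 1 withdrawn and trastuzumab 2 continuous. Untreated MamBo43 is the library in which Ptgs1 exceeds Ptgs2 most, with a Ptgs2 share of 26.7%, and Ptgs2 leads in all 6 HER2-negative libraries.

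Ptgis, Hpgd and Ptger2 were too low for the test between HER2 groups and are given as counts. Ptgis, prostacyclin synthase, had 16 counts in untreated MamBo43 and at most 2 counts in any other library. Hpgd, the enzyme that inactivates prostaglandin E2, had 9 counts in the MAMBO89AG3 library, 5 in parental and 3 in withdrawn MamBo89. It had 0 counts in continuous MamBo89 and in untreated MamBo43, and 1 count in all 6 HER2-negative libraries together. Where it had 0 counts, a level of up to the floor of 3 counts is allowed. Hpgd RNA was thus near the floor of these libraries in each line, and 4 of 5 HER2-positive levels were at or below 5 counts. An exact permutation test of log2(CPM + 0.5) over all 462 arrangements, two-sided, gave p = 0.0606 for Hpgd and p = 0.608 for Ptgis, where the smallest possible p is 0.00216.

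Ptger2 and Ptger4 encode EP2 and EP4, the prostaglandin E2 receptors that raise cyclic AMP. Ptger2 had 25 and 3 counts in untreated, 12 in withdrawn and 28 in continuous MamBo38, 7 and 3 counts in withdrawn and continuous MamBo43, and 0 to 3 counts in each HER2-positive library. The groups touched at 3 counts, and the exact permutation test, two-sided, gave p = 0.0303 for Ptger2. Leaving out 1 library at a time gave p from 0.0159 to 0.0667, and it passed 0.05 without any of 6 libraries, among them each of the 3 MamBo38 libraries with the highest counts. Ptger4 was the receptor with measurable RNA in all libraries. It ranged from 5.10 CPM over a median of 10.01 CPM to 14.2 CPM in HER2-negative libraries, and had 17.1 CPM in the MAMBO89AG3 library, 42.2 CPM in parental, 55.2 CPM in withdrawn and 35.1 CPM in continuous MamBo89, and 13.96 CPM in untreated MamBo43. Only untreated MamBo43 among the HER2-positive libraries lay within the HER2-negative range, and the log2 fold change was -1.74 ± 0.38 (SE), with an adjusted p of 0.00265 from edgeR. With tumor of origin as a covariate, log2 was -0.52 with an adjusted p of 0.517, and over 21 alternatives the adjusted p ranged from 3.52e-05 to 0.517. In Ptger4, 13.2% of 75-base windows also occur in transcripts of Ttc33 and Gm15937, which overlap it on the opposite strand. The library kit keeps no strand, so their reads cannot be told apart there.

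In MamBo43, trastuzumab-treated libraries, which the study's methods list as having lost HER2, were compared with the untreated one. The study still found a small share of HER2-positive cells in such cultures. Epithelial markers summed to 2902 CPM in the withdrawn and 647 CPM in the continuous library, beside 4655 CPM in the untreated one. The share of each kind of cell in these libraries was not tested. The 6-group fit used for this and the following line comparisons assumes that the single untreated MamBo43 library varies like the other groups. Of the 10 genes, all of which passed the filter of this fit, edgeR called 5, beside 28.5% of 13782 genes. Hpgd passed only through the MAMBO89AG3 library and had 0 counts in every MamBo43 library, and Ptger2 passed only through MamBo38. Ptgs2, Ptges, Pla2g4a and Ptges3 rose, as did 13.2% of all, and Ptgis fell, as did 15.3%. Ptgis passed only through its 16 counts in untreated MamBo43, so its call against that same library is not read as a result. Ptgs2 was 12.6 times its untreated level when withdrawn and 17.6 times when continuous, with a log2 fold change of 3.92 ± 1.03 (SE) and an adjusted p of 0.0228 from edgeR. Ptges was 4.66 and 6.99 times its untreated level, and its log2 fold change was 2.55 ± 0.71 (SE) with an adjusted p of 0.0284 from edgeR. Pla2g4a stood at 3.77 and 4.80 times its untreated level, a log2 fold change of 2.11 ± 0.49 (SE) with an adjusted p of 0.0151 from edgeR. The substrate-releasing enzyme, the inducible cyclooxygenase and the inducible synthase were thus all higher in both treated libraries. Ptges3 was 1.74 and 2.90 times its untreated level, with a log2 fold change of 1.22 ± 0.50 (SE) and an adjusted p of 0.0997 from edgeR, which is at the threshold. Without the continuous library its log2 fold change was 0.81 with an adjusted p of 0.329, over a range of 0.0460 to 0.329 in 7 alternatives. Ptgis fell by count from 16 to 0 and 1, a call that is lost when either treated library is left out, with adjusted p of 0.168 without the withdrawn and 0.135 without the continuous one. Ptgs1, by contrast, stood at 0.489 and 0.416 times its untreated level, with an adjusted p of 0.253 from edgeR, and Ptger4 at 0.366 and 0.537 times with an adjusted p of 0.132. Both passed when the MamBo43 libraries were fitted alone, with adjusted p of 0.0297 for Ptgs1 (0.0297 to 0.477 over 7 alternatives) and 0.0889 for Ptger4 (0.0889 to 0.326).

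Between the untreated lines, MamBo38 and MamBo43 differ in HER2 and share the tumor. edgeR called 6 of the 10 genes there, against 35.2% of all genes tested (17.5% higher and 17.8% lower). Ptgs2 (5.61 ± 1.13 log2, SE), Ptges (4.398 ± 0.79), Pla2g4a (2.41 ± 0.50) and Ptges3 (1.31 ± 0.50) were higher in untreated MamBo38, with adjusted p of 0.00528, 0.003, 0.0062 and 0.0703 from edgeR. Without untreated MamBo38 replicate 2, which lacks the code of the other MamBo38 libraries, Ptges3 had an adjusted p of 0.212 (0.0235 to 0.212 over 6 alternatives). Ptger2, at 25 and 3 counts against 0, and Ptgis, at 1 and 0 counts against 16, were also called, on counts near the floor. Ptger2 passed the filter only through MamBo38 and Ptgis only through untreated MamBo43, where they are high. These calls, counted among the 6, are therefore not read as results. Both calls depend on 1 library, since Ptger2 had an adjusted p of 0.187 from edgeR without untreated MamBo38 replicate 1 (0.0328 to 0.187 over 5 alternatives) and Ptgis 0.178 without replicate 2. Ptgis was not called by DESeq2 either, with an adjusted p of 0.473 (0.0564 to 0.473 over 5 alternatives). Ptgs1 was not called, with an adjusted p of 0.315, and Ptger4 had 0.779. Ptges2, at -0.90 log2, was called lower without untreated MamBo38 replicate 1, at -1.09 with an adjusted p of 0.0184 from edgeR (0.00323 to 0.0697 over 6 alternatives).

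The untreated HER2-positive lines, MamBo43 and MamBo89, come from different tumors, and edgeR called 2 of the 10 genes between them, both higher in MamBo43, against 15.5% of all genes tested (9.29% higher and 6.19% lower). Ptgs1 was higher in MamBo43, at 119 CPM against 2.91 and 14.3 CPM, with a log2 fold change of 3.78 ± 0.73 (SE) and an adjusted p of 0.0124 from edgeR. Ptgis was called on its 16 counts, with an adjusted p of 0.0993, and that call was lost under 3 of 5 alternatives. Those counts alone took Ptgis through the filter, so its call, counted among the 2, is not read as a result. Ptgs2, Ptges and Pla2g4a had log2 differences of 0.03 ± 0.83, -0.17 ± 0.64 and 0.29 ± 0.44 (SE), with adjusted p of at least 0.7103 from edgeR. For Ptgs1, the fold within HER2-positive libraries was therefore larger than that between HER2 groups, though the difference between these folds was not tested.

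Between the HER2-negative libraries of both lines, edgeR called 2 of the 10 genes, both higher in MamBo38, beside 20.2% of all genes tested (9.88% higher and 10.3% lower). The mean of untreated and treated MamBo38 was set against MamBo43 with trastuzumab, in which the study still found some HER2-positive cells. Ptgs1 was higher in MamBo38 by a log2 fold change of 2.23 ± 0.57 (SE), with an adjusted p of 0.0222, and Ptges by 1.90 ± 0.48 (SE), with an adjusted p of 0.0201 from edgeR. Ptgs1 lost its call without either MamBo43 library, with adjusted p of 0.116 and 0.131 from edgeR (1.1e-04 to 0.131 over 11 alternatives), and Ptges lost it without the withdrawn MamBo43 library, with an adjusted p of 0.150 (1.24e-04 to 0.150 over 11 alternatives). Ptgs2 had a log2 difference of 1.54 ± 0.63 (SE) and an adjusted p of 0.101 from edgeR, just outside the threshold, and it passed in 5 of 11 alternatives, DESeq2 among them with an adjusted p of 0.0169 (0.00161 to 0.362 over all 11). Pla2g4a and Ptges3 had log2 differences of 0.20 ± 0.32 and -0.14 ± 0.33 (SE), the smallest among the 6 genes called between HER2 groups. The fold changes of the 7 expressed genes in 4 of the comparisons are plotted side by side, and these comparisons share libraries.

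**Figure D3:**
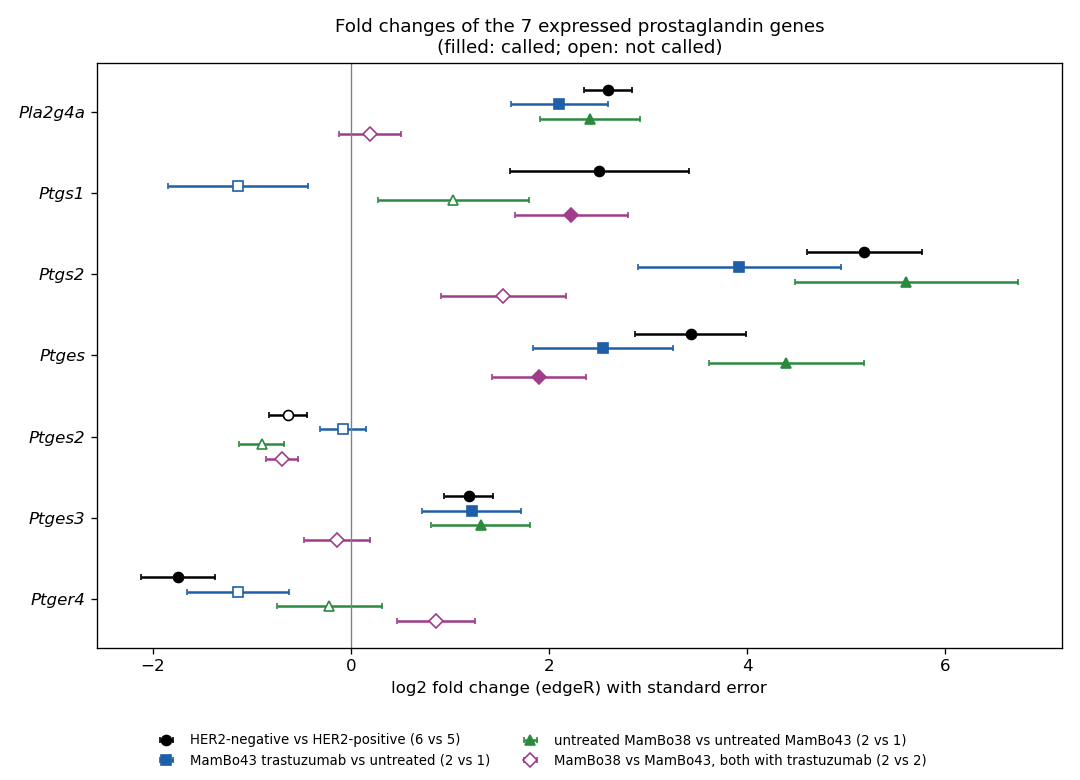
Log2 fold change (x axis) of the 7 prostaglandin genes tested between HER2 groups (y axis) in 4 comparisons, each point with its standard error from edgeR. Numbers of libraries are in the key, which is wrong for MamBo38 against MamBo43 with trastuzumab. It reads 2 against 2, both with trastuzumab, but all 4 MamBo38 libraries, untreated and treated, were set against 2 of MamBo43. Filled points were called and open ones were not, and Ptgs2 and Ptges lie to the right of 0 in all 4, whereas Ptgs1 lies to the left of 0 in MamBo43 with trastuzumab against untreated.

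Trastuzumab in lines that kept their HER2 status gave no call by edgeR with all libraries in the fit. In MamBo89, out of 13782 genes edgeR called 0, although 724 had an unadjusted p under 0.05, and DESeq2 called 29. In MamBo38 edgeR also called 0, with 230 at an unadjusted p under 0.05, and DESeq2 called 1. Neither tool called any of the 10 genes in these comparisons. In MamBo38 the levels of Ptgs2 were 2613 and 2353 CPM in untreated and 2126 and 1913 CPM in treated libraries. In MamBo89 the untreated group holds the MAMBO89AG3 library, whose parental counterpart had 4.90 times its Ptgs1, 2.85 times its Ptges, 2.47 times its Ptger4 and 0.447 times its Ptges3. Against the MAMBO89AG3 library alone, 2148 genes were called, and 3 of the 10 genes were called higher in treated MamBo89, and against the parental library alone 0 genes were called. The rise from untreated to treated cells differed between MamBo43 and MamBo89 in 3 of the 10 genes, beside 22.2% of all genes tested (11.1% upward and 11.2% downward). The difference of log2 fold changes was 4.06 ± 1.18 (SE) for Ptgs2, 2.47 ± 0.60 for Pla2g4a and 1.70 ± 0.63 for Ptges3, with adjusted p of 0.0514, 0.0308 and 0.0998 from edgeR. Over 10 alternatives it ranged from 3.23 to 6.16 for Ptgs2, from 1.94 to 3.31 for Pla2g4a and from 0.97 to 2.16 for Ptges3. For Ptgs2 the adjusted p was 0.122 without continuous MamBo43 (7.94e-04 to 0.122 over 10 alternatives), and Ptges3 lost its call in 5 of 10 alternatives. Ptger4, not called at -1.74, was called lower in 4 of 10, with adjusted p from 0.0118 to 0.263 over all 10.

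Continuous and withdrawn trastuzumab were compared over the 3 lines, with 1 library of each per line. Out of 12207 genes edgeR called 0, although 385 had an unadjusted p under 0.05, and DESeq2 called 10, none of them among these genes. The lines did not move alike. In continuous MamBo89 Ptgs2 stood at 0.132 times and Pla2g4a at 0.388 times the withdrawn level, while Ptges stood at 2.59 times and Ptgs1 at 2.47 times. In MamBo38 the same ratios lay between 0.900 and 1.04, and in MamBo43 they were 1.40 for Ptgs2, 1.27 for Pla2g4a, 1.499 for Ptges and 0.851 for Ptgs1. Each of these ratios compares 1 library with 1 library and has no replicate check.

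The other genes of the pathway were counted from lists, again between the HER2 groups, where 32.8% of all tested genes were called, 15.8% higher and 17.0% lower. Among other phospholipases and enzymes that recycle lysophospholipids, 1 of 14 tested rose and 6 fell. Pla2g12a, a secreted phospholipase A2, rose from 22.1 ± 5.29 CPM (SD, n = 5) in HER2-positive to 121 ± 30.9 CPM (SD, n = 6) in HER2-negative libraries. Lpcat2 and Lpcat3, which put fatty acids back into lysophospholipids, fell by 5.56 and 1.89 on the log2 scale, and Faah and Mgll, which hydrolyse endocannabinoids, also were lower (Faah fell by 2.87 and Mgll fell by 2.501). The median log2 fold change of this list was -0.53.

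Of 4 tested synthases and reductases for other prostanoids, 3 rose and 0 fell. These were the carbonyl reductases Cbr3 (6.35 log2) and Cbr1 (1.92), which can reduce prostaglandins, and Akr1b3 (4.41), an aldose reductase with prostaglandin F synthase activity. The synthases of prostaglandin D2, Ptgds and Hpgds, stayed below 0.5 CPM in all 11 libraries, and thromboxane synthase Tbxas1 did not exceed 1.01 CPM.

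Of 8 tested genes for breakdown and transport, 3 rose and 2 fell. Abcc4, a carrier that exports prostaglandins, had 129 CPM in withdrawn and 179 CPM in continuous MamBo43, between 341 and 443 CPM in MamBo38, and between 0.827 and 11.9 CPM in HER2-positive libraries. Abcc4 had a log2 fold change of 6.17 ± 0.76 (SE), with an adjusted p of 6.73e-05 from edgeR. Slco2a1, which takes prostaglandins up, ranged from 28.2 to 52.8 CPM in HER2-negative and from 81.7 to 130.1 CPM in HER2-positive libraries. Slco2a1 had a log2 fold change of -1.33 ± 0.20 (SE) with an adjusted p of 2.83e-04 from edgeR. Neither carrier overlapped between the groups, and they moved in opposite directions, also in MamBo43 with trastuzumab (6.33 and -1.45 log2). With tumor of origin as a covariate Slco2a1 was at -0.94, under the fold change minimum. Ptgr1 (1.996 log2) and Zadh2 (1.93), which reduce prostaglandins after the step of Hpgd, rose too, and Hsd11b1, a steroid dehydrogenase, fell by 1.43 on the log2 scale. Hsd11b1 had a log2 fold change of -0.82 and an adjusted p of 0.181 from edgeR without the MAMBO89AG3 library (0.0270 to 0.181 over the libraries left out).

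**Figure D4:**
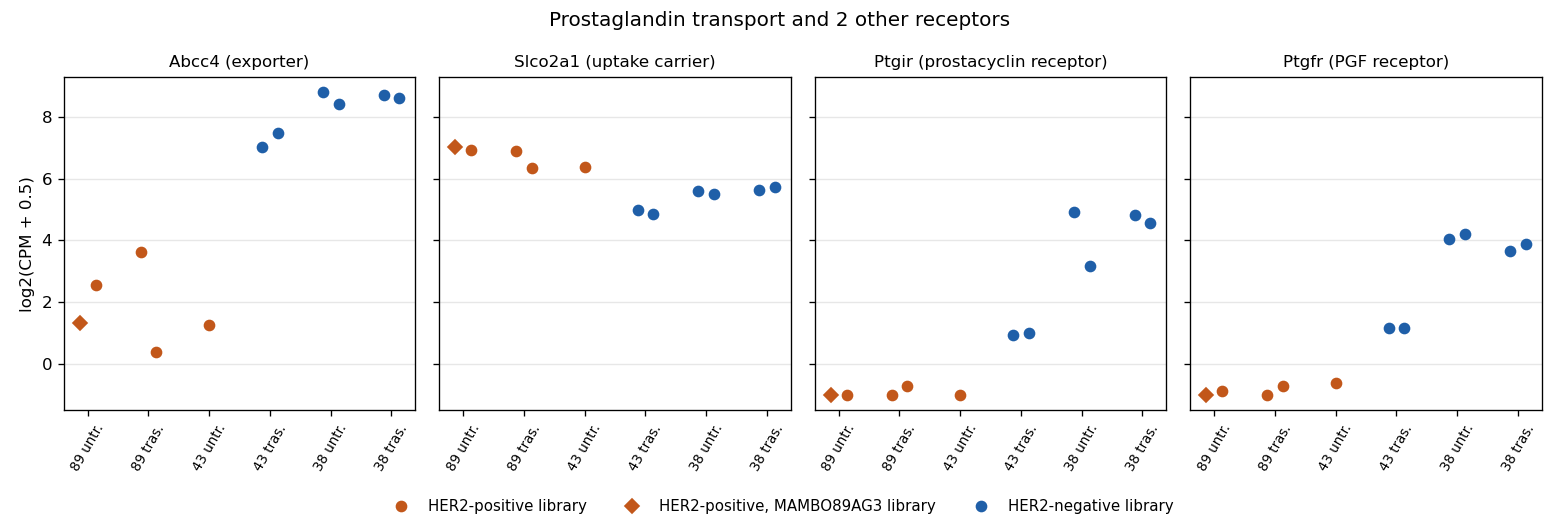
Levels of the exporter Abcc4, the uptake carrier Slco2a1 and the receptors Ptgir and Ptgfr by line and trastuzumab (x axis), as log2(CPM + 0.5) (y axis), with 1 point per library and the withdrawn library left of the continuous one. Abcc4, Ptgir and Ptgfr are higher and Slco2a1 is lower in all 6 HER2-negative libraries than in any of the 5 HER2-positive ones.

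Among the remaining prostanoid receptors and nuclear targets, 2 of 6 tested rose and 2 fell. Ptgir, the prostacyclin receptor, had between 8.54 and 30.0 CPM in MamBo38 and 1.42 and 1.53 CPM in MamBo43 with trastuzumab, and at most 0.110 CPM, under the floor, in HER2-positive libraries. Ptgfr, the receptor of prostaglandin F2 alpha, had between 12.1 and 18.03 CPM in MamBo38, 1.77 and 1.76 CPM in MamBo43 with trastuzumab and at most 0.157 CPM in HER2-positive libraries. Both were called higher, in the line comparison of MamBo43 as well. Ptger1, the EP1 receptor, and Ptgfrn, a partner of Ptgfr, fell by 1.73 and 1.43 on the log2 scale. In the lipoxygenase, leukotriene and epoxide branches, 4 of 6 tested genes rose and 0 fell, namely Ltc4s (9.31 against 0.0785 CPM), Ephx2 (3.58 log2), Lta4h (1.72) and Ephx1 (1.64).

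Of 35 tested cytokines, receptors and factors known to act on Ptgs2 transcription, 6 rose and 9 fell, the first close to the 15.8% of all tested genes called higher and the second above the 17.0% called lower. The AP-1 member Fosl1 rose by a log2 fold change of 6.40, the cytokine Il6 by 5.69, the repressor Snai2 by 3.47 and Hif1a by 1.66. The interleukin 1 antagonist Il1rn fell by 4.19 on the log2 scale, and Tnf fell by 3.15, Fos fell by 2.04 and Tcf7l2 fell by 1.75. Of the cytokines named here that are known to induce Ptgs2, Il6 was thus higher and Tnf lower in HER2-negative libraries. Among 13 tested factors known to act on the stability or translation of Ptgs2 mRNA, 1 rose and 2 fell. Zc3h12a, an RNase that degrades mRNAs of inflammation, fell by 2.80 on the log2 scale, and Zfp36, which promotes decay of AU-rich mRNAs, fell by 1.005, at the fold change minimum and below it under RLE scaling among other settings. Zfp36l2, of the same family, rose by 1.12, and by 0.11 with tumor of origin as a covariate. Downstream of the EP receptors, 6 of 21 tested genes rose and 2 fell (8 in all, close to the background of 32.8%), with Prkar2b (3.48 log2), Pde4a (3.23), Pde4d (3.16) and the adenylyl cyclase Adcy3 (3.10) higher, and the phosphodiesterase Pde4b (-2.90) and the cyclase Adcy7 (-1.51) lower. In this list the median log2 fold change was -0.04, as over all genes. With tumor of origin as a covariate, Cbr1, Ptgr1, Hsd11b1, Ptger1, Ephx2, Prkar2b, Pde4a and Pde4d lost their calls, and within tumor B alone, with its single HER2-positive library, Lpcat2, Faah, Mgll, Ltc4s and Il1rn lost theirs as well.

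In MamBo43 with trastuzumab against untreated, the same lists gave 1 gene higher and 4 lower of 19 tested phospholipases and recycling enzymes, 2 higher and 1 lower of 6 synthases and reductases, and 1 higher and 1 lower of 8 for breakdown and transport. Of the receptors 2 of 7 rose and 0 fell, and of the lipoxygenase branches 2 of 9 rose and 0 fell. Of the factors acting on Ptgs2 transcription 3 of 35 rose and 6 fell, of those acting on its mRNA 0 of 13 rose and 3 fell, and downstream of the EP receptors 3 of 22 rose and 5 fell. The background is that 28.5% of all tested genes were called.

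Markers of other cell types were measured beside these genes. Of 11 leukocyte and macrophage markers, 9 stayed below 1 CPM in every library, and Adgre1, Tyrobp and Cd3e were at 0 in all. The list summed to between 8.30 and 61.8 CPM in HER2-negative and to between 77.3 and 433 CPM in HER2-positive libraries. In the latter the sum was mostly Cd14, which fell by 4.98 on the log2 scale, and in MamBo38 it was mostly Cd68, at 26.8 to 49.9 CPM beside 7.69 to 11.6 CPM of Cd14. Between the HER2 groups Cd68 had a log2 fold change of 1.67 with an adjusted p of 0.0885 from edgeR. Of 7 endothelial markers, 6 stayed below 1 CPM and Cldn5 was at 0, with sums of 3.04 to 15.5 CPM in HER2-negative and 7.39 to 16.7 CPM in HER2-positive libraries. Of 5 adipocyte markers, 4 stayed below 1 CPM and Lep was at 0, with sums of 0.932 to 2.72 and 0.157 to 0.551 CPM.

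Ptgs2 and Pla2g4a are neighbouring protein-coding genes on chromosome 1. In GENCODE M21 on GRCm38, Pla2g4a spans 149829618 to 149961290 on the minus strand and Ptgs2 starts at 150100031 on the plus strand. The gap of 138.741 kb holds 3 annotated genes, of which 0 are protein-coding. Within 1000 kb of the start of Ptgs2, 7 genes of the table were found and 5 were tested between HER2 groups. Besides this pair, Hmcn1 was called, with 0.221 CPM in HER2-negative and 6.62 CPM in HER2-positive libraries (in MamBo43 with trastuzumab against untreated its log2 was 4.23, of opposite sign, with an adjusted p of 0.424 from edgeR), and Tpr and Odr4 had log2 differences of -0.19 and 0.10 with adjusted p of 0.347 and 0.522 from edgeR.

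The genes whose log2(CPM + 0.5) followed Ptgs2 most closely over the 11 libraries, among 12357 genes, were Tbc1d31 (Pearson's r = 0.987), Sybu (0.987), Abcc4 (0.985), Sgsm2 (0.983) and Peak1 (0.983). For Hpgd they were Arhgap35 (0.953), Gsta3 (0.936), Phf10 (0.929), Sae1 (0.928) and Herc2 (0.927). These values describe libraries that share lines and HER2 status, and for Hpgd they rest on the 4 libraries with any count.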

How the data were processed

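RNA was measured in 11 mouse mammary carcinoma libraries (TruSeq v2, which keeps no strand, with 75-nt single reads per the study's methods). The deposited values are expected counts per gene, which the authors made with STAR 2.5 and RSEM 1.3.0 on mm10, per the submitters' processing notes. The annotation behind these values is not given in the sources used here. They were whole numbers as deposited and were used unchanged.

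Genes were filtered with filterByExpr of edgeR 4.0.16 (minimum count 10, minimum total 15, in R 4.3.3), scaled by TMM and tested by the quasi-likelihood test with Benjamini-Hochberg adjustment over all genes tested. The thresholds of the study were used for a call (adjusted p below 0.1, log2 change of 1 or more in size). The standard error is the log2 fold change over the root of F. CPM uses the TMM factors of the HER2 comparison. Line comparisons used 1 fit of 6 groups, and the schedules a fit with line as a block. DESeq2 1.42.0, RLE scaling, other filters, covariates, subsets and leaving out each library were alternatives. On simulated data, 88.5% of 200 genes changed 8-fold were recovered in the HER2 comparison, with 14 false calls among 12269 genes, and 72.5% in MamBo43 with trastuzumab against untreated, with 9 among 13378. The simulated libraries had no structure by line, tumor or code, so these figures do not cover errors from that structure.

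The members and lists were chosen with earlier results of these data known. All 10 members were named, from each list the called genes of the largest change, at most 4 in each direction, and for Ptgs2 and Hpgd the 5 genes of highest correlation. Genes outside this rule (Ptgds, Hpgds, Tbxas1 and the neighbours of Ptgs2) were named after their values were seen. Pairs of libraries within a line and HER2 status differed by more than sampling noise (chi-square per degree of freedom 7.89 to 180.4). Intervals and floors cover counting error only.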

Additional observations from a re-analysis of the deposited data

Results flagged for a closer look

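In 6 of 40 sets of 1 gene in 1 group of 4 to 6 libraries, 1 library lay far from the others. Chance alone marks about 1 set in 20, but the groups are nested and 3 of the 6 sets rest on 1 count in 1 library against 0 in the others, so nothing is read from their number. Ptgs1 in untreated MamBo43 was at 119 CPM, and the next HER2-positive library had 19.3 CPM. Ptges2 in continuous MamBo89 was at 34.5 CPM, below the next MamBo89 library at 42.5 CPM. Ptgis in untreated MamBo43 was at 0.629 CPM, and the next HER2-positive library at 0.0485 CPM, the MAMBO89AG3 library, which in turn was the only MamBo89 library with a count. Hpgd in untreated MamBo38 replicate 2 was at 0.0558 CPM, from 1 count, and at 0 in the other HER2-negative libraries, so that it stood apart both among these and among the MamBo38 libraries.

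The change from untreated to trastuzumab-treated cells differed between MamBo43 and MamBo89, by the test of the difference itself, for Ptgs2 (4.06 on the log2 scale), Pla2g4a (2.47) and Ptges3 (1.70). Of these, Ptges3 lost its call in 5 of 10 alternatives and Ptgs2 without continuous MamBo43, with an adjusted p of 0.122 from edgeR (7.94e-04 to 0.122 over 10 alternatives).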

How the results depend on the processing

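Pla2g4a, Ptgs2 and Ptges kept their call between HER2 groups in all 21 alternatives, with log2 fold changes of 2.21 to 2.70, 4.75 to 5.65 and 2.85 to 4.30. Ptgs1 was not called with the library code (1.68, adjusted p = 0.182) or tumor of origin as a covariate, in the 8 libraries that share a code (1.70, 0.252), in tumor B (0.61, 0.676) or in untreated libraries (2.41, 0.249). Ptger4 was not called with the tumor covariate, in tumor B (-0.55, 0.429) or in untreated libraries (-1.01, 0.258), nor was Ptges3 with the tumor covariate (1.13, 0.106), which left 3 of the 10 genes called. In each of these the cause was not tested. Without a filter on low counts, 8 of the 10 were called, Ptger2 and Hpgd being added.

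With 10 counts in every library, which tests fewer genes, 2597 genes were called between HER2 groups, 2488 in MamBo43, 1261 between the untreated HER2-positive lines, 2896 between untreated MamBo38 and MamBo43, and 1335 between their HER2-negative cells. DESeq2 called 29 genes for trastuzumab in MamBo89, 1 in MamBo38 and 10 for the schedules, where no filter gave 2. Between the untreated HER2-positive lines, these libraries alone gave 952 genes, and 1 of the 10 genes was called there, under DESeq2, without a filter and with 10 counts in every library.

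With each library left out, MamBo43 gave 2607 to 3738 genes and 3 to 4 of the 10, MamBo89 0 to 2148 genes and 0 to 3 of the 10, the untreated HER2-positive lines 1 to 3 of the 10, the HER2-negative cells 0 to 2 of the 10, the difference between lines 1606 to 4428 genes and 1 to 5 of the 10, and the schedules 0 to 10 genes. Between the untreated HER2-positive lines Ptgs2 ranged from -0.032 to 0.15, Ptges from -0.67 to 0.77 and Ptges3 from -0.62 to 0.60. Ptger4 ranged from -0.51 to 0.027 between untreated MamBo38 and MamBo43, Ptges3 from -0.48 to 0.27 and Ptgis from -0.97 to 2.72 between the HER2-negative cells, and Ptges2 from -0.078 to 0.26 in the difference between lines. In the exact permutation test the log2 difference ranged from -0.45 to -0.22 for Hpgd, from -0.25 to 0.040 for Ptgis, which turned without untreated MamBo43, and from 0.65 to 0.94 for Ptger2. Over the 10 genes, 446 of 500 values under an alternative kept direction and call, 29 lost the call, 16 gained it and 9 turned direction. Of 1022 values of other named genes, 72 lost the call and none turned.

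The labels carry no replicate number shared between groups, so libraries were not paired by replicate. The schedules were paired by line, and leaving out line as a block changed no call. Depth limits Hpgd, Ptgis and Ptger2, and the single HER2-positive library of tumor B limits every comparison within that tumor.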
